A study of Pelodiscus sinensis with 18 samples.

Results

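The genes described here copy the chromosomes and then separate them, measured as RNA in 2 organs, liver and gut, of Pelodiscus sinensis, the Chinese soft-shelled turtle. They were chosen by a rule on gene symbols that used no measured values, although earlier results of these data were known. The symbols cover the MCM, ORC and GINS families, the CENP proteins, cyclins A, B, D and E with CDK1, CDK2 and CDK6, CDC6, CDC7, CDC20, CDC25 and CDC45, the mitotic kinesins, the AURK, PLK and BUB1 kinases, NDC80, TOP2A and MKI67. The choice found 74 genes among 24880 rows of the table. Of these, 31 reached the filter for testing in liver, 55 in gut and 56 over both tissues together, and 18 were tested nowhere. The filter asked for at least 1 FPKM in at least 3 libraries of a fit.

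The turtles were labelled wild type (WT) and either left unexposed (control) or exposed to niclosamide, an anthelmintic drug that also serves as a snail poison. Turtles called nic10 here received 10 µg per L and those called nic50 received 50 µg per L, and each of the 6 combinations of tissue and dose had 3 libraries. The labels give no age, exposure time or animal number. Nor do they tie the 3 libraries of a group to different animals. The p-values therefore reflect library-to-library spread, which may be technical. FPKM, a fragment count scaled by transcript length and by the library's mapped fragments, carries no depth that could be recovered here.

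DNA replication starts at origins marked by the origin recognition complex (ORC). CDC6 helps load the MCM2 to MCM7 ring there, the kinase CDC7 and the cyclin-dependent kinases fire it, and CDC45 and the GINS complex turn it into the working helicase. In mitosis CDK1 with cyclin B drives entry, CENP proteins and NDC80 build the kinetochore on the centromere, kinesin motors move chromosomes and spindle, and BUB1, BUB1B and CDC20 control the step into anaphase. Most of these RNAs are made by dividing cells, which in adult gut are chiefly those of the crypts and of lymphoid tissue, while most adult hepatocytes do not divide. In whole tissue, fewer cells of a type and less RNA per cell cannot be told apart.

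Not every gene chosen by symbol has that function. AURKAIP1 (an AURKA-interacting protein of the mitochondrial ribosome), CDC73 (a subunit of the PAF transcription complex), MCM3AP (an mRNA export factor), CENPJ (a centriole protein) and CDC20B (a gene of multiciliated cells) are kept apart below as genes of other known function. CCNA1 is a cyclin known from the germ line of mammals, and MCM8 and MCM9 act in recombination. They were not kept apart: CCNA1 is counted below with the cyclins, and MCM8 and MCM9 with the origin and helicase genes. The antigen gene MKI67, the most used marker of dividing cells, was listed at 0 in 16 of 18 libraries and at 0.0687 and 0.233 FPKM in gut nic50 libraries 1 and 2. It therefore carries no information here on which tissue divides. A further 3 rows known only by number carry the RefSeq symbols CENPS, CENPQ and CENPU, and were not among the 74.

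At 1 FPKM or more, 9440 to 10839 features were seen per liver and 11534 to 12340 per gut. The 9 hepatocyte markers summed to 71900 to 97900 FPKM in each liver and to 1070 to 18200 in each gut, nearly all of the latter from APOA1. The 11 enterocyte markers summed to 348 to 9660 per gut and 52.2 to 158 per liver. Several libraries stood apart. Liver control 1 held the lowest of 9 liver values for 39.9% of all genes tested, and for 10 of the 31 genes tested here. Pearson's r across genes was 0.992 to 0.994 among the nic50 livers and 0.993 between control livers 2 and 3, closer than any other pair of a group (0.933 to 0.978). Only 5 libraries held a set of 11 genes that was near 0 elsewhere: gut controls 1 and 2, liver controls 2 and 3, and library 3 of the nic50 guts. Gut nic50 library 2 is described with the gut results.

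Most of these genes were low. Over the 9 gut libraries the median gene had a mean of 2.38 FPKM, and over the 9 livers 0.696 FPKM. In gut 11 genes averaged at least 10 FPKM and 21 averaged under 1, while in liver 8 averaged at least 10 and 44 under 1. In liver 50 of 666 single values were listed at 0, against 18 of 666 in gut.

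**Figure D1:**
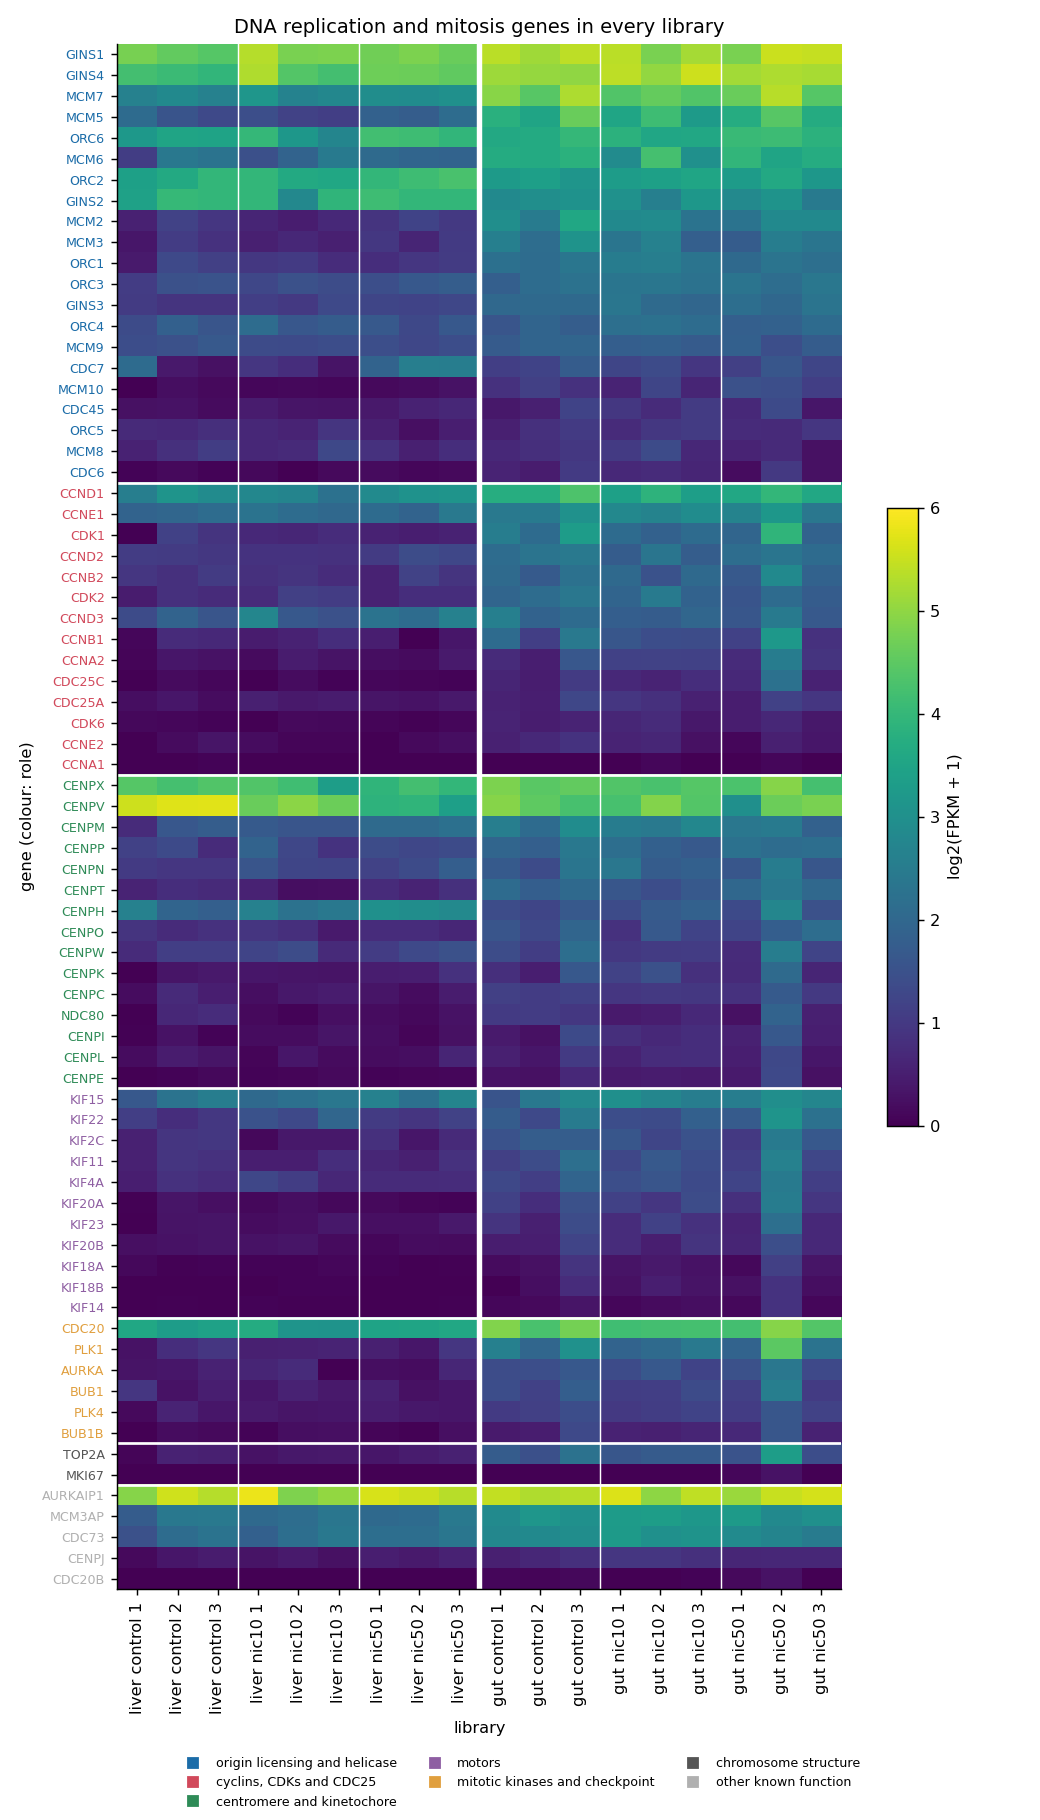
Level of each of the 74 genes (rows, coloured and blocked by role, ordered by mean level in gut) in each of the 18 libraries (columns), as log2(FPKM + 1). Gut columns are brighter than liver columns for most rows, gut nic50 library 2 is brightest for most rows of the mitotic blocks, and CENPV darkens from left to right across the livers.

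The leading genes of each role were as follows. Among origin and helicase genes GINS1 led in both tissues, with a mean of 37.2 FPKM over 9 guts and 26.5 over 9 livers, and GINS4 followed with 36.0 and 21.6. Both encode subunits of the GINS complex. The other GINS subunits were lower, GINS2 at 6.52 in gut and 13.4 in liver and GINS3 at 3.35 and 1.17, although the complex is known in other animals to hold 1 copy of each. Among the cyclins and their kinases CCND1, the D-type cyclin that answers growth signals, led in both tissues with 12.6 FPKM in gut and 6.15 in liver.

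In the centromere group CENPX, a histone-fold protein, led in gut with 21.7 FPKM, close to CENPV with 21.5. CENPV, a protein that in human cells binds the mitotic spindle and the centromere, led in liver with 29.5 FPKM over the 9 livers. Its mean was 49.7 in control livers but 12.5 at nic50, where CENPX was higher at 15.5. KIF15, a spindle kinesin, led the motors with 5.25 FPKM in gut and 4.04 in liver, and CDC20, which activates the anaphase-promoting complex, led the checkpoint group with 21.3 and 9.81. TOP2A, the topoisomerase that untangles sister chromatids, averaged 3.02 FPKM in gut and 0.329 in liver. Among the genes of other known function AURKAIP1 had the highest mean of all 74 over the 9 libraries of each tissue, 41.0 in gut and 40.4 in liver. In control livers alone its mean was 38.2, below that of CENPV.

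Unexposed liver and gut were compared first. Most of the 74 genes were lower in liver: the control mean was higher in gut for 67 of the 73 genes with a value in a control (91.8%, against 73.9% of all rows), and the 3 control livers all lay below the 3 control guts for 57 of 74 (as for 44.3% of all rows with a value). On the log2(FPKM + 1) scale the genes farthest apart were MCM5, MCM7 and MCM2, of the MCM ring. The 4 genes with all 3 livers above all 3 guts, as for 10.7% of all rows, were CENPV, CENPH, GINS2 and ORC2.

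MCM5, a subunit of the ring, measured 3.27, 1.96 and 1.49 FPKM in control livers 1 to 3 and 13, 10.4 and 23.7 in control guts. MCM2, another subunit, measured 0.471, 1.26 and 0.923 in liver and 6.8, 4.63 and 10.9 in gut. MCM7 measured 5.19, 6.23 and 5.21 in liver and 29.8, 20.6 and 37.4 in gut. All control livers lay below all control guts for each of these, and gut control 3 was the highest gut for all 3. On the log2(FPKM + 1) scale used for every fold change here, which understates the change of low genes, the liver minus gut differences were -2.32 for MCM5 (SE 0.30, limma adjusted p = 6.51e-06) and -2.17 for MCM7 (SE 0.23, adjusted p = 7.81e-07). MCM2 differed by -2.12 (SE 0.26), given with no test because it did not reach the filter in liver alone and entered the fit through the gut libraries, where it is high.

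Mitotic kinases had lower values in liver too. They and the other genes of this paragraph did not reach the filter in liver alone, so their differences are a description with no test. CDK1, the kinase of mitotic entry, measured 0, 1.22 and 0.881 FPKM in control livers and 4.81, 3.28 and 8.97 in control guts (log2 difference -1.96, SE 0.43). PLK1, a kinase of spindle assembly, measured 0.22, 0.729 and 0.942 in liver and 5.07, 2.94 and 7.18 in gut (-1.86, SE 0.47). Neither gene overlapped between the tissues. The differences were -1.37 for CCNB1 (cyclin B1), -1.43 for TOP2A and -1.08 for AURKA (a spindle pole kinase), each without overlap.

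Higher in liver were CENPV, with 45.9, 51.1 and 52 FPKM in control livers against 29.1, 21.8 and 18.1 in control guts (log2 difference 1.10, SE 0.35, limma adjusted p = 0.012), and GINS2, with 9.8, 15.1 and 14.7 against 6.18, 6.78 and 7.29 (0.85, SE 0.27, adjusted p = 0.0115). ORC2, an origin-binding subunit, measured 9.59, 11.6 and 14.6 against 8.64, 9.38 and 7.75 (0.42, SE 0.18, adjusted p = 0.0477). CENPH, a subunit of the inner kinetochore, measured 5.19, 2.79 and 2.55 against 1.64, 1.39 and 2.19 (0.69, SE 0.30, adjusted p = 0.0593). Livers lay above guts for these 4 genes without overlap, and the first 3 passed the test. CENPV stopped passing without gut control 3 (adjusted p = 0.0501). ORC2 passed in 1 of 6 fits that left out 1 library, the one without liver control 1, at adjusted p-values of 0.0154 to 0.208 in limma. With control livers 2 and 3 averaged into 1 value, GINS2 (adjusted p = 0.0659) and ORC2 (0.163) no longer passed, and CENPV did (0.0448).

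By the same test 40 of 56 genes differed, where 64.1% of all 13475 genes tested did. Of the 40, 37 were lower in liver and 3 higher, where 51.5% of all genes were lower and 12.6% higher. Of the 56, 25 did not reach the filter in liver alone (44.6%, against 19.2% of all genes tested), so the count over the 56 is tilted toward lower in liver. Among the 31 that reached it in liver alone, 18 were lower (58.1%, against 46.2% of genes) and 3 higher (9.68%, against 15.6%). The median difference over all genes was -0.58, so the share called lower depends on scaling. After rescaling by trimmed means, which moved that median to 0, 17 of the 56 were lower (30.4%, against 24.8% of all genes) and 5 higher (8.93%, against 25.8%). After quantile normalization 15 were lower (26.8%, against 27.4%) and 6 higher (10.7%, against 22.7%). MCM5, MCM7, CENPV, GINS2 and ORC2 kept their direction and call under both rescalings. CENPH, which did not pass before, passed as higher in liver under trimmed means (1.26, limma adjusted p = 0.00567) and quantile normalization (1.3, adjusted p = 0.00493).

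**Figure D2:**
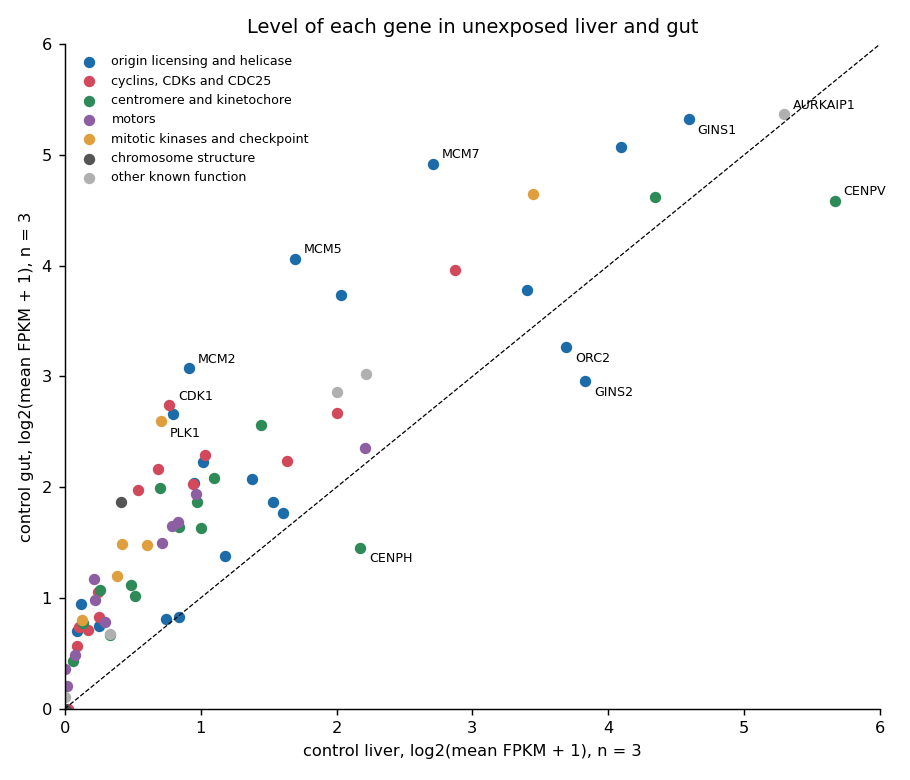
Level of each of the 74 genes in unexposed liver (horizontal axis) and unexposed gut (vertical axis), as log2 of the mean FPKM of 3 libraries plus 1, coloured by role, with the line of equal levels dashed. Most points lie above the line, MCM5, MCM2, MCM7, CDK1 and PLK1 far above it, and CENPV, CENPH, GINS2 and ORC2 below it.

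In liver, exposure changed 1 of these genes by the test. CENPV fell with dose, and the other 30 genes tested did not pass in any liver comparison. At 10 µg per L 0 of 31 genes passed, where 1.07% of all 10892 genes did. At 50 µg per L 1 passed, where 4.71% of all genes did. Between the doses 1 passed, where 2.53% of all genes did. At an unadjusted p under 0.05, 1 gene was higher and 1 lower at the low dose, where 8.8% and 4.75% of all genes were. At the high dose 7 were higher and 1 lower (16.1% and 4.32% of all genes), and between doses 3 were higher and 2 lower (13% and 5.91%). All of these comparisons share libraries, nic10 and nic50 their 3 controls.

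CENPV measured 45.9, 51.1 and 52 FPKM in control livers, 23.9, 30.3 and 24.3 in nic10 livers and 13.8, 14.3 and 9.52 in nic50 livers. The 3 groups did not overlap, and each dose lay below the one before it. An order of this kind, falling, was held by 23 of the 10892 genes tested in liver (0.211%), and by CENPV alone of the 31 tested here. A rising order was held by 0 of them and by 1.01% of all genes tested. The means were 49.7 ± 3.30, 26.2 ± 3.56 and 12.5 ± 2.62 FPKM (SD, n = 3).

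CENPV fell by 1.92 on the log2 scale at 50 µg per L (SE 0.19, limma adjusted p = 0.000747) and by 1.02 between the doses (SE 0.19, adjusted p = 0.0234). At 10 µg per L its difference from control was -0.91 (SE 0.19, adjusted p = 0.0555). The fall at 50 µg per L passed in all 6 fits that left out 1 library, at -2.02 to -1.75. With controls 2 and 3 averaged into 1 value and the 3 nic50 livers into another, as their likeness allows, it was -1.90. That setting leaves nic50 as 1 value, too few to uphold the call. The difference between doses passed in 2 of 6 fits that left out 1 library and lost its call without nic10 library 2 or any nic50 library.

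Other values moved beside CENPV in these livers. The summed FPKM of 11 enterocyte markers was 158, 128 and 134 in control livers, 52.2, 105 and 92.5 in nic10 livers and 79.3, 75.6 and 57.3 in nic50 livers, most of it from APOA4 and LGALS4, while the defining gene CDX2 stayed at or under 0.0483 FPKM in every liver. That of 10 stellate cell and fibroblast markers was 11.6 to 16.3 in controls, 21.3 to 32.6 at nic10 and 36.5 to 57.3 at nic50, and 4 of its 8 tested genes passed as higher at nic50. The macrophage sum (6 markers) was 21.3 to 35.3 in controls, 44.7 to 47.2 at nic10 and 41 to 58.7 at nic50, and the T cell sum (9 markers) was 4.47 to 11.3, 7.83 to 9.07 and 13.2 to 25.8. The hepatocyte sum was 71900 to 82400 in controls, 81200 to 97900 at nic10 and 78400 to 84700 at nic50. The part of these markers in the CENPV result was not tested.

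In gut CENPV measured 29.1, 21.8 and 18.1 FPKM in controls, 18.1, 28.8 and 20 at nic10 and 6.93, 24 and 26.5 at nic50. The groups overlapped, and nic50 library 1 was far below the other 8 guts. The gut difference at 50 µg per L was -0.42 (SE 0.44, limma adjusted p = 0.906). The liver change minus the gut change was -1.50 (SE 0.50, adjusted p = 0.187). It passed in 1 of 12 fits that left out 1 library, the one without gut nic50 library 1 (-2.07, adjusted p = 0.00398). In the other fits the adjusted p reached 0.456.

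**Figure D3:**
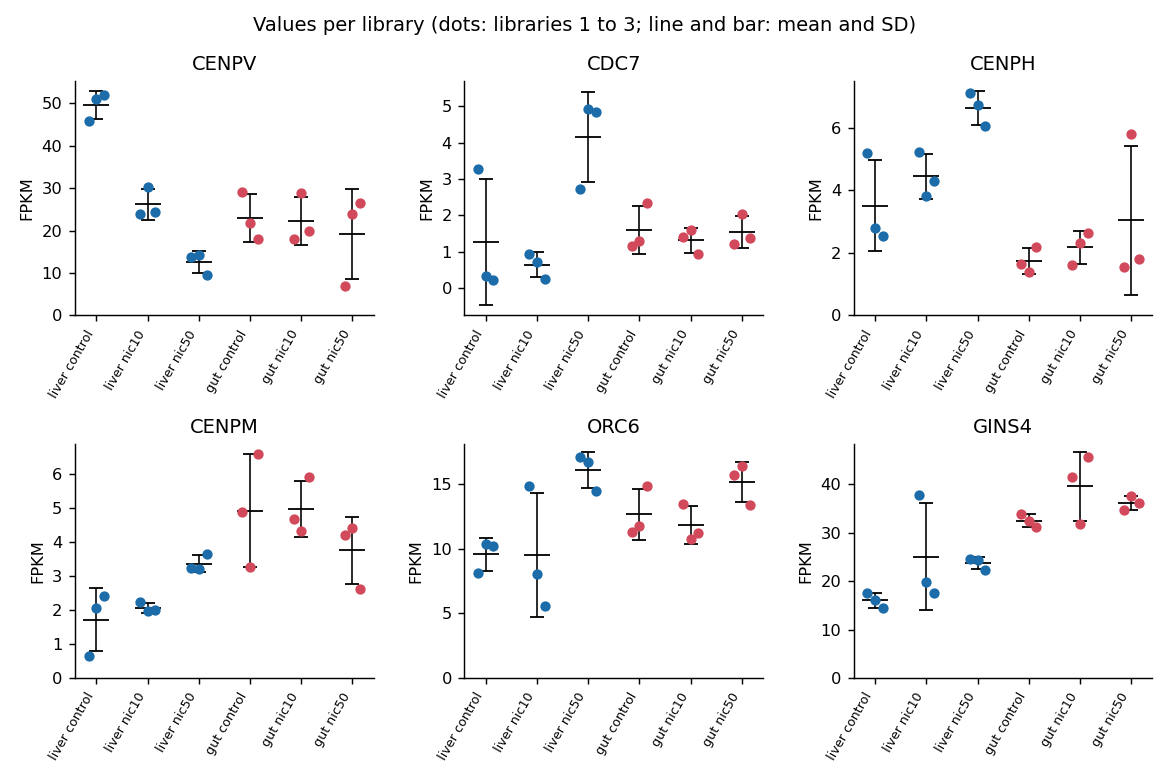
FPKM in every library (dots, liver blue, gut red) of CENPV and of 5 genes with higher means in nic50 than in control livers, with the group mean and SD (n = 3). CENPV steps down from 49.7 to 26.2 to 12.5 FPKM across the livers, and liver control 1 stands apart for CDC7 at 3.27 FPKM against 0.335 and 0.209.

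The 5 genes with the highest differences from control at 50 µg per L in liver were CDC7, CENPH, CENPM, CCND3 and ORC6, and none passed the test. CCND3, a D-type cyclin, measured 1.57, 2.76 and 2 FPKM in controls, 5.73, 2.15 and 1.81 at nic10 and 3.84, 3.36 and 5.2 at nic50, with nic50 above all controls (0.72, SE 0.32, limma adjusted p = 0.23). CENPH measured 5.19, 2.79 and 2.55 FPKM in controls, 5.21, 3.82 and 4.29 at nic10 and 7.1, 6.74 and 6.04 at nic50. All nic50 livers lay above all others (log2 fold change against control 0.80, SE 0.23, limma adjusted p = 0.0762). CENPH passed in 1 of 6 fits that left out 1 library, the one without control 1 (1.05, adjusted p = 0.00869). In the other fits the adjusted p reached 0.236. CENPM, also of the inner kinetochore, measured 0.659, 2.07 and 2.42 in controls, 2.23, 1.97 and 2 at nic10 and 3.24, 3.21 and 3.66 at nic50 (0.75, SE 0.25, adjusted p = 0.123).

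CDC7, the kinase that fires loaded origins, measured 3.27, 0.335 and 0.209 FPKM in controls, 0.931, 0.724 and 0.251 at nic10 and 2.73, 4.91 and 4.84 at nic50. The nic50 livers lay above all nic10 livers, and control 1 lay within their range. The difference from control was 1.41 (SE 0.43, limma adjusted p = 0.0868). It passed in 1 of 6 fits that left out 1 library, the one without control 1 (1.99, adjusted p = 0.00488). In the other fits the adjusted p reached 0.302. The difference from nic10 was 1.65 (SE 0.43, adjusted p = 0.0679) and passed in 1 of 6 such fits. Among the livers only controls 2 and 3 hold the set of 11 genes. A covariate for that set therefore left control 1 alone as the comparison, and the difference was 0.24.

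ORC6, an origin complex subunit, measured 8.13, 10.4 and 10.2 FPKM in controls, 14.9, 8.07 and 5.61 at nic10 and 17.1, 16.7 and 14.5 at nic50, with 1 nic10 liver inside the nic50 range (0.70 against control, SE 0.28, limma adjusted p = 0.193; 0.79 against nic10, adjusted p = 0.166). ORC2 measured 14.7, 16.5 and 18.5 at nic50 (0.45 against control, limma adjusted p = 0.233). GINS4 measured 17.6, 16.1 and 14.5 in controls, 37.7, 19.9 and 17.5 at nic10 and 24.5, 24.3 and 22.2 at nic50 (0.54 at both doses, adjusted p = 0.39 and 0.265). In all, 9 of the 31 genes had all 3 nic50 livers above all 3 controls, where 26.8% of all genes tested did, and 2 had them below (CENPV and CENPX), where 8.75% did.

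Subunits of the MCM ring did not pass. MCM5 measured 3.27, 1.96 and 1.49 FPKM in controls, 1.72, 1.27 and 1.15 at nic10 and 2.61, 2.43 and 3.33 at nic50. Its differences were -0.42 at nic10 (SE 0.23, limma adjusted p = 0.472) and 0.67 between doses (SE 0.23, adjusted p = 0.148), with all nic50 above all nic10 livers. MCM7, one of the 9 genes with nic50 above all controls, differed by 0.25 (adjusted p = 0.492), and MCM2, at 0.403 to 1.29 FPKM over the 9 livers, was below the filter for testing. The kinesin KIF22, which pushes chromosome arms, measured 1.18, 0.713 and 0.954 in controls, 1.87, 1.51 and 2.92 at nic10 and 1.06, 0.908 and 1.27 at nic50. Its nic10 livers lay above all others (0.65 against control, SE 0.21, adjusted p = 0.182).

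Several mitotic genes were low in every liver, unlike CDC20 and KIF15. Over the 9 livers CDK1 ran from 0 to 1.22 FPKM, PLK1 from 0.22 to 0.942, CCNB1 from 0 to 0.726, TOP2A from 0.0633 to 0.477 and AURKA from 0 to 0.658. None reached the filter for testing in liver. For none of these genes did the nic50 livers all lie above or all lie below the control livers. With the filter dropped, limma called 0, 1 and 1 of the 74 genes in the 3 liver comparisons.

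Over the 31 genes the median log2 difference was 0.05 at nic10, 0.25 at nic50 and 0.10 between doses, beside 0.04, 0.13 and 0.10 over all genes tested. After rescaling by trimmed means the 3 medians were 0, 0.10 and 0.03, beside -0.01, -0.01 and 0.01 over all genes.

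**Figure D4:**
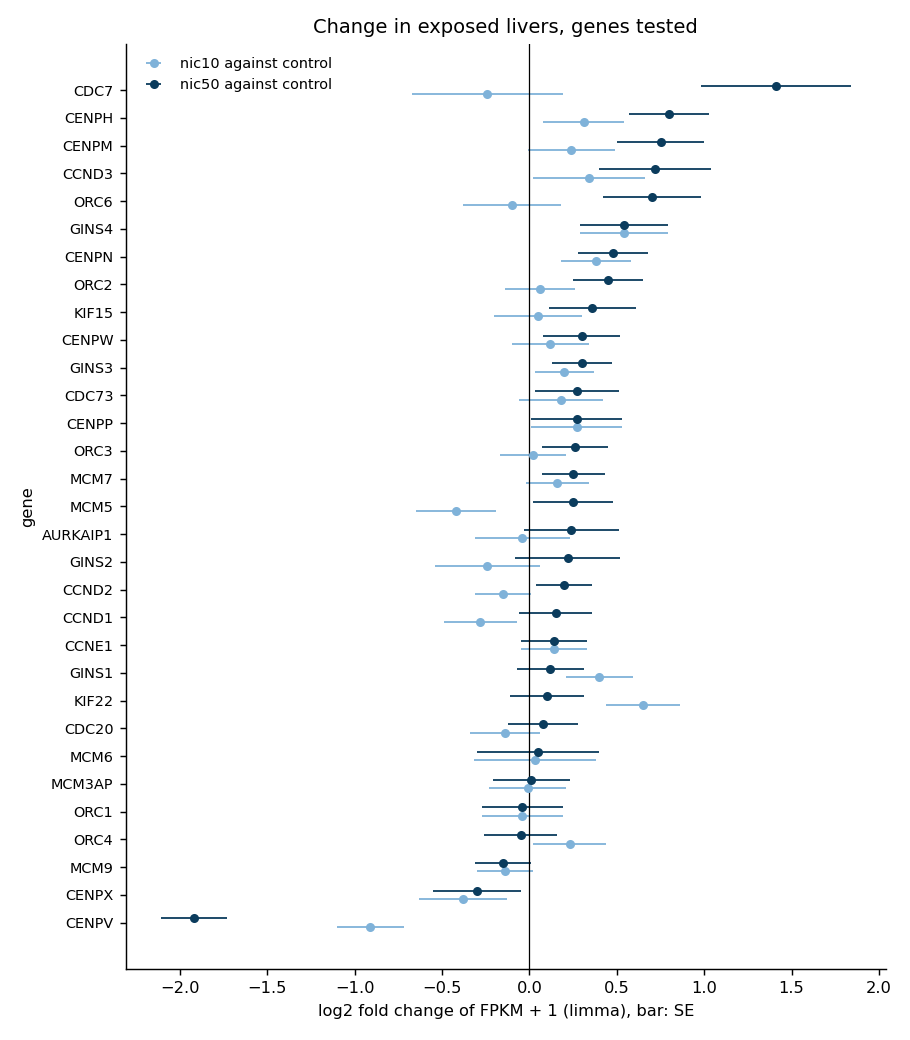
Log2 fold change of FPKM + 1 against control for the 31 genes tested in liver, at nic10 (light) and nic50 (dark), with the SE of the limma fit as bars (3 libraries a group). CENPV stands alone at the left, at -0.91 and -1.92, and CDC7, CENPH and CENPM lead at the right for nic50.

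In gut, 0 of 55 genes passed the test in any exposure comparison. All genes gave few calls as well: 0.174% of 12617 at 10 µg per L, 0.0238% at 50 µg per L and 0.119% between the doses. At an unadjusted p under 0.05 the limma fit had 1 gene higher and 1 lower at the low dose (10.4% and 4.43% of all genes), 0 either way at the high dose (2.44% and 4.06%), and 1 higher and 1 lower between doses (3.12% and 11.1%). The difference between liver and gut in their change was tested for 56 genes at each dose and 0 passed, where 0.364% and 0.987% of all 13475 genes did. At an unadjusted p under 0.05 in limma, 1 gene was higher and 0 lower at the low dose (4.07% and 5.76% of all genes), and 3 were higher and 1 lower at the high dose (10.2% and 2.26%).

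At 10 µg per L the smallest p among higher genes was that of ORC4, an origin complex subunit, at 2, 2.81 and 2.42 FPKM in controls and 3.59, 3.7 and 3.32 at nic10 (0.42, SE 0.16, limma adjusted p = 0.299). Among lower genes it was that of CENPT, which links the centromere to NDC80, at 3.3, 2.48 and 3.17 in controls and 2.06, 1.69 and 2.22 at nic10 (-0.41, SE 0.18, adjusted p = 0.335). Neither group overlapped with its controls. CDC20 measured 28.2, 18.3 and 25.7 in controls and 17, 17.6 and 17.9 at nic10 (-0.42, SE 0.22, adjusted p = 0.389), again with no overlap.

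Of the 55 genes, 7 had all nic10 guts below all controls (CDC20, CDK1, CENPC, CENPT, CENPW, CENPX and NDC80), where 6.38% of all genes tested did. A further 4 had them above (CDC73, MCM3AP, ORC3 and ORC4), where 15.6% did. CDK1 measured 4.81, 3.28 and 8.97 FPKM in controls and 3.25, 2.61 and 3.25 at nic10 (-0.64, SE 0.52, limma adjusted p = 0.567). The 55 genes had a median of -0.12, beside 0.11 over all genes. Without gut control 3 these medians were 0 and 0.13.

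At 50 µg per L the means say little, because 1 of the 3 libraries differed from the other 2. CDK1 measured 2.89, 14.3 and 2.72 FPKM in nic50 guts 1 to 3. PLK1 measured 2.76, 21.5 and 3.86, and TOP2A 1.89, 9.1 and 1.67. In each case library 2 was the highest of all 9 guts, while the other 2 lay within or below the control range. The tested differences from control were -0.05 for CDK1 (SE 0.52, limma adjusted p = 0.995), 0.36 for PLK1 (SE 0.59, adjusted p = 0.954) and 0.27 for TOP2A (SE 0.46, adjusted p = 0.958).

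Gut nic50 library 2 was the highest of the 9 guts for 42 of the 74 genes, and for 30 of the 55 tested, where it was highest for 9.93% of all genes tested. By role it was highest for 6 of 7 motors, 5 of 5 kinases and checkpoint genes, 8 of 12 centromere genes and 5 of 9 cyclins and their partners, but for 5 of 18 origin and helicase genes and 0 of 3 of other known function. Its value over the mean of the other nic50 guts had a median of 1.57 over the 55 genes, beside 0.951 over all genes, and exceeded 2 for 22 of them (40%, against 5.68%). These values describe a library noticed in the data and were not tested. The filter counted that library too, and NDC80 and CDC45 reached it only with its value.

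By the median over the genes tested, the step was larger for the mitotic roles than for origin and helicase genes. The median ratio was 3.59 for motors, 2.54 for kinases and checkpoint genes, 2.14 for cyclins and their partners, 1.96 for centromere genes, 1.20 for origin and helicase genes and 1.01 for genes of other known function. NDC80, the outer kinetochore protein that grips microtubules, was at 0.215, 2.75 and 0.447 FPKM in nic50 guts 1 to 3, a ratio of 8.30. CCNB1 was at 1.22, 8.25 and 0.81 (ratio 8.15). KIF23, a kinesin of the midbody, was at 0.525, 3.54 and 0.605 (6.27), and CCNA2, the cyclin of S phase and early mitosis, at 0.679, 4.76 and 0.877 (6.12).

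Among the origin genes tested CDC45 was the exception, at 0.605, 1.56 and 0.277 FPKM, a ratio of 3.55. CDC6, below the filter for testing, was at 0.151, 0.991 and 0.211, so library 2 stood far above its group there too. MCM6, at 14.4, 10.3 and 12.1, and GINS3, at 3.52, 3.02 and 3.98, were lower in library 2 than in the other nic50 guts. MCM2 was at 3.91, 6.21 and 6.22, with library 2 level with library 3. MCM5 was at 12.1, 20.9 and 11.9, below the 23.7 of gut control 3.

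Gut control 3 also stood above its group for many of these genes. Its value over the mean of controls 1 and 2 had a median of 1.45 over the 55 genes, beside 1.04 over all genes, and exceeded 2 for 11 of them (20%, against 5.32%). The median was 2.17 for motors and 1.15 for origin and helicase genes, of which 2 of 18 exceeded 2. It was 1.5 for kinases and checkpoint genes, of which 0 of 5 exceeded 2, against 3 of 5 in nic50 library 2. NDC80, which led in nic50 library 2, was at 1.03, 1.09 and 0.966 in controls 1 to 3. CDC45 had the ratio 3.55 in both libraries, and reached the filter only with both of them counted.

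**Figure D5:**
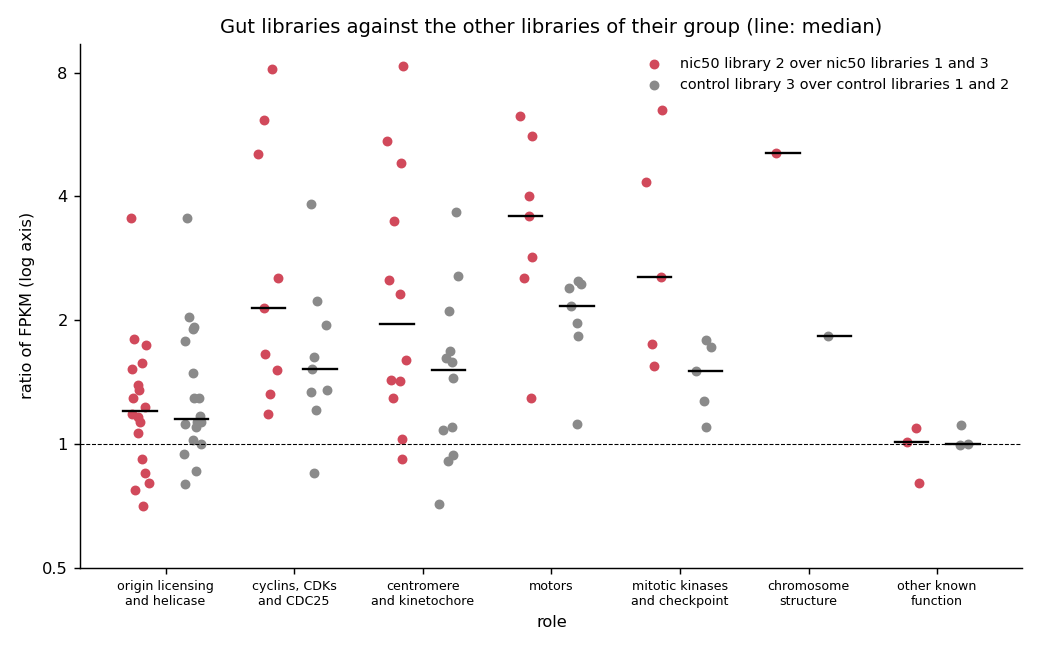
FPKM in gut nic50 library 2 over the mean of nic50 libraries 1 and 3 (red), and in gut control library 3 over the mean of controls 1 and 2 (grey), on a log axis, for the 55 genes tested in gut by role, with the median as a line. Motors, kinases and TOP2A lie highest in red, at medians of 3.59, 2.54 and 5.11, and origin genes and genes of other known function near 1.

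Markers of gut cell types also differed in nic50 library 2. The sum of 9 crypt markers was 68.8 FPKM there and 193 to 2620 in the other guts, set mainly by OLFM4, at 22.8 there and 161 to 2580 elsewhere. Of the 9, 2 were lowest there, OLFM4 and SMOC2 (0.341, against 0.786 to 1.54 in the other guts), and 0 were highest. The stem cell gene LGR5 was at 10.4, within the 3.88 to 15.5 of the others. The sum of 11 enterocyte markers was 9660 against 348 to 3620, of which APOA4 gave 7650. Of the 11 markers 2 were highest there and CDH17 was lowest, at 93. The fibroblast and smooth muscle sums were the lowest of the 9, at 19.2 and 460.

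Of 9 B and plasma cell markers 5 were highest in that library, CD79B, PAX5, BLNK and BTK among them, while their sum, dominated by JCHAIN, was 166 in a range of 65.5 to 546 in the others. PAX5, a defining B cell gene, was at 2.09 there and at most 0.679 in the other guts. In gut control 3 PAX5 was at 0.0163. The 9 T cell markers summed to 99.4, in a range of 52.4 to 196. The part of these cell types in the level of the mitotic genes was not tested.

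Without nic50 library 2 the gut medians at 50 µg per L turned from above to below 0. The median difference from control over the genes tested went from 0.09 to -0.19, for motors from 0.22 to -0.27 and for kinases and checkpoint genes from 0.12 to -0.33. For origin genes it was -0.02 and -0.08. Over all genes it was -0.02 and -0.01. Between the doses the median went from 0.18 to -0.09. Of the 55 genes 0 passed with or without the library. Because it was picked for its high values, lower medians without it were built in. With it kept and gut control 3 left out, the median difference from control over the genes tested was 0.17. It was then 0.43 for motors, 0.29 for kinases and checkpoint genes and 0.11 for origin genes, beside 0 over all genes.

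At 50 µg per L in gut single genes did not pass the test, which does not show that they equalled control. The smallest p among higher genes was that of MCM10, a factor of helicase start, at 0.806, 1.19 and 0.796 FPKM in controls and 1.79, 1.72 and 1.16 at nic50 (0.40, SE 0.23, limma adjusted p = 0.848). Here library 2 did not stand apart, and 1 nic50 value lay inside the control range. KIF15 (0.49, adjusted p = 0.858) and ORC6 (0.25, adjusted p = 0.878) came next, and among lower genes CDK2 (-0.35, adjusted p = 0.861), MCM3 (-0.40) and CENPM (-0.30, both adjusted p = 0.892). Between doses CENPT (0.57, SE 0.18, adjusted p = 0.245) and CDC73 (-0.44, SE 0.16, adjusted p = 0.285) had the smallest p.

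Genes of the same pathways outside the 74 were counted from a list of 114, of which 109 were in the table, 67 tested in liver and 95 in gut. In gut 0 passed in limma in any exposure comparison; at an unadjusted p under 0.05, 4 of 95 were higher at nic10, 4 lower at nic50 and 7 lower between doses, where 10.4%, 4.06% and 11.1% of all genes were. In liver 0 of 67 passed at 10 µg per L, where 1.07% of all genes did. At 50 µg per L 1 passed, as lower, where 4.71% passed either way. Between the doses 2 passed as higher and 1 as lower, where 2.53% passed either way. At an unadjusted p under 0.05 in limma, 3 were higher and 3 lower at 10 µg per L (8.8% and 4.75% of all genes). At 50 µg per L 8 were higher and 4 lower (16.1% and 4.32%), and between the doses 7 and 3 (13% and 5.91%). Their median log2 difference at 50 µg per L in liver was 0.05, and that in gut -0.04. Between unexposed tissues 62 of 95 were lower in liver and 1 higher, where 51.5% and 12.6% of all genes were. Of the 95, 28 did not reach the filter in liver alone. Of the other 67, 42 were lower and 1 higher, where 46.2% and 15.6% of all genes reaching it in liver alone were.

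The lower gene was WDHD1 (also called AND-1), which ties the helicase to the polymerase that starts new strands. It measured 5.55, 4.19 and 4.05 FPKM in control livers, 2.64, 3.22 and 4.12 at nic10 and 0.7, 0.38 and 0.458 at nic50. All nic50 livers lay far below all others (-1.88 against control, SE 0.20, limma adjusted p = 0.000873; -1.51 against nic10, adjusted p = 0.00392). It passed in all 6 fits without 1 library in both comparisons. With alike livers averaged it differed from control by -1.94, and nic50 was then 1 value, too few to uphold the call. In gut WDHD1 measured 0.816 in nic50 library 1 and 2.3 to 6.62 in the other 8, so that the gut lowest for CENPV was lowest for WDHD1 too.

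Among the genes higher between the doses was TIMELESS, a fork protection protein. It measured 6.9, 11.5 and 12.2 FPKM in controls, 3.07, 3.95 and 8.24 at nic10 and 19.4, 26 and 25.4 at nic50, with nic50 above all others (2.09 against nic10, SE 0.31, limma adjusted p = 0.00646; 1.16 against control, adjusted p = 0.0589). It passed in 4 of 6 fits without 1 library and lost its call without nic50 library 2 or 3 (adjusted p = 0.0529 and 0.0559). With alike livers averaged it differed from nic10 by 2.09, again with nic50 as 1 value, too few to uphold the call.

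Of the 3 numbered rows with CENP symbols, CENPQ (LOC102461041), of the same inner kinetochore complex as CENPH and CENPM, rose in nic50 livers. It measured 3.6, 3.38 and 4.1 FPKM in controls, 4.04, 3.28 and 4.27 at nic10 and 9.82, 7.14 and 8.01 at nic50, with no overlap (0.98 against control, SE 0.18, limma adjusted p = 0.0165; 0.93 against nic10, adjusted p = 0.0281). It passed against control in 2 of 6 fits without 1 library, losing the call without control 2 or any nic50 library. Against nic10 it passed in 1 of 6 such fits. With alike livers averaged, CENPQ differed from control by 0.99, and nic50 was then 1 value, too few to uphold the call. CENPU (LOC102463409) differed by 0.22 (adjusted p = 0.526), and CENPS (LOC102454986) was below the filter in liver.

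The genes varied together to different degrees. Each library was given the mean z-score of the 56 genes tested over both tissues, after each tissue was centred on its own mean. It ran from -0.68 in liver control 1 to 0.52 in liver nic50 library 3, and from -0.59 in gut nic50 library 1 to 1.41 in gut nic50 library 2. CENPK (Pearson r = 0.91), TOP2A, KIF23 and CENPW (each 0.90) followed this score closest among its own genes. MCM9 (-0.31), GINS3 (-0.15) and CENPV (-0.08) did not follow it. These r values run over 18 libraries that share their tissues and the genes of the score.

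The 5 genes outside the 74 most alike to that score were UHRF1 (r = 0.944), ATAD2 (0.91), NUF2 (0.906), CDCA5 (0.892) and KIFC1 (0.888) over 18 libraries. UHRF1 maintains DNA methylation at the fork, and NUF2 is the partner of NDC80. Without gut nic50 library 2 the 5 values were 0.908, 0.851, 0.821, 0.795 and 0.819 over 17 libraries. UHRF1 measured 0.859, 5.8 and 0.914 FPKM in nic50 guts 1 to 3, and KIFC1, a minus-end spindle kinesin, 1.12, 12.6 and 1.16, so that library 2 was far above its group for both.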

How the data were processed

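Per the labels' protocols, TRIzol was used for extraction and the VAHTS Universal V6 kit for library construction. CASAVA is named in the submitters' processing notes. Aligner, counter and build: not given in the sources used here. Deposited by the authors were FPKM values of 24880 features in 18 libraries. The commonest ratio between low values of library pairs was shared by 0.535% to 1.77% of low genes, so reads could not be recovered and depth is unknown.

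The limma package (3.58.1, R 4.3.3) was fitted to log2(FPKM + 1) with an intensity trend, per tissue (9 libraries) or over 18 libraries for tissue differences. Genes reaching 1 FPKM in 3 or more libraries were tested two-sided, with Benjamini-Hochberg adjustment over all genes tested and a threshold of 0.05. The fit was tested on simulated data. RefSeq (assembly ASM4963464v1) gave names only; 72 of the 74 symbols matched.

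The genes, roles, lists and alternatives were chosen with earlier results of these data known. By rule the text names, per comparison, genes past the threshold (up to 5 each way) or the 3 smallest p each way, MKI67, TOP2A, CDK1, CCNB1, MCM2, MCM5, PLK1 and AURKA, the leading gene of each role and those of other function; not every one is printed. NDC80, KIF23, CCNA2, CDC6, CDC45, MCM6, GINS3, SMOC2 and the library contrasts were chosen after their values were seen. PAX5 and the other cell type markers named singly also fall outside that rule. Alternatives were a pseudocount of 0.1, no filter, trimmed-mean rescaling (30% of ratios and 5% of levels trimmed at each end), quantile normalization, a replicate block, alike livers averaged, and leaving out each library. A covariate for the set of 11 genes was chosen after seeing the data. Samples were not paired by replicate number except in the replicate block, and the labels do not say whether they are paired. Some genes counted in the lists are not reported here by name.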

Additional observations from a re-analysis of the deposited data

How the results depend on the processing

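Counts of genes past the test held in most alternatives. In liver only controls 2 and 3 hold the set of 11 genes, so with its covariate exposed livers were compared with control 1 alone. There CENPM differed by 1.4 at 50 µg per L and CENPV by -1.81. Between the doses the covariate changed the count of 1 to 3 (CDC7, CENPV, MCM5). With alike livers averaged nic50 is 1 value, so no count is given. CENPV then differed from control by -1.90 and from nic10 by -1.02, and 1 nic50 value is too few to uphold either call. Averaging leaves fewer libraries and residual degrees of freedom, and the lone nic50 value was assumed to vary like the others. Between tissues every alternative changed the count. There 40 became 22 with trimmed means and 21 with quantile normalization, and 32 with alike livers averaged, where GINS2 and ORC2 no longer passed. With a pseudocount of 0.1, 41 were lower in liver and 4 higher, and with the covariate 37 and 4. Leaving out 1 library gave 0 to 1 at 10 µg per L in liver, 1 to 3 at 50 µg per L, 0 to 3 between the doses, 29 to 41 between tissues, 0 to 1 for the difference between tissues at 50 µg per L, and 0 in the gut comparisons. Liver control 1 and nic10 library 1 moved the liver counts: without the former CDC7, CENPH and CENPV passed at 50 µg per L, and without the latter CDC7, CENPV and ORC6 passed between the doses. CENPV at 10 µg per L passed without either, at adjusted p-values of 0.0307 and 0.0451. For the other shifts the cause was not tested.

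The replicate block gave counts of 0, 1 and 1 in liver, 0 in each gut comparison, 39 between tissues and 0 for the differences in response. Same-numbered samples deviated together at r = -0.22 to 0.26 across tissues and -0.29 to 0.25 within them. With 3 libraries a group these r values cannot tell whether samples of 1 number came from the same animal, which the labels do not give.

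Depth is unknown, so low genes carry no counting interval. In liver 44 of the 74 genes average under 1 FPKM and most of these stay below the filter; without it the counts were the same but for 44 between tissues.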
